A study of Mus musculus with 4 samples.

Results

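The chaperone genes described here encode heat shock proteins and their DnaJ partners. They were taken by symbol (Hspa, Hspb and Hsp90 families, Hspd1, Hspe1, Hsph1, and DnaJ subfamilies A, B and C) from a table of read counts per gene, and 70 of the 72 matching genes had at least 40 reads summed over 4 libraries and were analysed, out of 23128 genes tested in all. The measurement was chromatin immunoprecipitation followed by sequencing (ChIP-seq), in which an antibody recovers the DNA bound by a protein, here Foxp1, a transcription factor of the forkhead family. The groups were Foxp1 ChIP from basal mammary epithelial cells, input DNA from basal cells, Foxp1 ChIP from luminal mammary epithelial cells, and input DNA from luminal cells, with 1 library each; input is chromatin taken without antibody. All 4 came from wild-type FVB/N female mice aged 10 to 12 weeks (the sample labels spell the strain FBV/N), and how many animals were pooled is not stated in the sources used here.

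Chaperones bind unfolded or newly made proteins and help them fold. Hsp70 proteins work in cycles of ATP binding and hydrolysis that DnaJ proteins stimulate and that nucleotide exchange factors such as Hsp110 reset, Hsp90 acts later on kinases and hormone receptors, small heat shock proteins hold unfolding proteins without ATP, and the Hspd1 and Hspe1 chaperonin folds proteins inside mitochondria. Many of these genes are induced by heat shock factor Hsf1, which binds repeats of GAA and TTC near their start sites, while the members that work in the endoplasmic reticulum (ER) are induced by the unfolded protein response. ChIP and input reads measure recovered DNA at a gene, not its expression.

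The basal libraries held 3772902 reads in gene regions for ChIP and 3080114 for input, and the luminal libraries 3163948 for ChIP and 4201459 for input. The members' own reads had a median per gene of 185 (range 10 to 342) in basal ChIP and 137 (7 to 243) in its input, and of 146.5 (7 to 299) in luminal ChIP and 206 (13 to 350) in its input. As a check of the labels, each of 10 basal marker genes had a higher ChIP over input ratio in basal than in luminal cells. Of these, 5 passed the rule given below, where 3.72% of all tested genes did, and 9 were also higher in basal than in luminal input. Of 11 luminal markers, 5 had the higher ratio in luminal cells and 1 passed, where 4.16% of all did, and 9 were lower in basal than in luminal input. The luminal marker Epcam was higher than input by the rule in both cell types, at 1.89-fold in basal and 1.69-fold in luminal cells. None of 5 fibroblast, 4 endothelial, 5 leukocyte or 4 adipocyte markers passed as higher in either ChIP library, where 4.24% of all did in basal and 1.5% in luminal cells. Dcn, Tek and Itgam passed as lower in basal cells, where 4.06% of all did, and Plin1 in luminal cells, where 2.13% did. In a bulk preparation, binding in more of the cells and stronger binding per cell cannot be told apart. Without a control antibody, the ratio of ChIP to input does not separate Foxp1 binding from other recovery of DNA.

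The promoters of 5 Hsp genes are shown: Hspa1b, Hspb1 and Hspa4 for their calls in basal cells, Hspa1a as the near copy of Hspa1b, and Hspa5 for its ER stress element. Each runs from 250 bases before the annotated start to 50 bases after it, as listed by RefSeq on build GRCm38.p6, and is written in the direction of the gene. Capitals mark matches on either strand to GAANNTTC or TTCNNGAA (pieces of a heat shock element), TGTTTAC (a forkhead motif), CCAAT and CCACG, as well as the TATA box TATAAA. Hspa1b (chr17:34959189-34959488, minus strand) and Hspa1a (chr17:34972107-34972406, minus strand) encode the stress-inducible cytosolic Hsp70, and Hspb1 (chr5:135887669-135887968, plus strand) encodes a small heat shock protein. Hspa4 (chr11:53300430-53300729, minus strand) encodes an exchange factor of the Hsp110 type, and Hspa5 (chr2:34771840-34772139, plus strand) the Hsp70 of the ER, also called BiP.
Hspa1b: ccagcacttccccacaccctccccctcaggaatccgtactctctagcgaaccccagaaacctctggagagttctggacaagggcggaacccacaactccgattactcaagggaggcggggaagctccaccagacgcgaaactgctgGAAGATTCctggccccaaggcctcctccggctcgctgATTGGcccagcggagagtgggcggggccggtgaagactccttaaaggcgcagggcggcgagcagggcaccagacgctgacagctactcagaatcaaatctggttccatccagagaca
Hspa1a: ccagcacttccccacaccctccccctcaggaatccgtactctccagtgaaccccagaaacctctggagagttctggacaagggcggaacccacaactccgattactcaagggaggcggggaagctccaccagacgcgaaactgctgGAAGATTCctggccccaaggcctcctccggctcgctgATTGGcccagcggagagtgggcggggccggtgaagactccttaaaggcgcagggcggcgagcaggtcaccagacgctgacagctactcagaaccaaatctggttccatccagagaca
Hspb1: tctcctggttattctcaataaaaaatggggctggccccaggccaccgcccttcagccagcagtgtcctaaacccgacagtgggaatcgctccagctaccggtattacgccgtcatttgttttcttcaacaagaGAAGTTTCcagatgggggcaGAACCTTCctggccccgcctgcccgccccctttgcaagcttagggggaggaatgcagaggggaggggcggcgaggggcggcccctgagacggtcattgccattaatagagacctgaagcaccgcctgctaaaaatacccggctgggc
Hspa4: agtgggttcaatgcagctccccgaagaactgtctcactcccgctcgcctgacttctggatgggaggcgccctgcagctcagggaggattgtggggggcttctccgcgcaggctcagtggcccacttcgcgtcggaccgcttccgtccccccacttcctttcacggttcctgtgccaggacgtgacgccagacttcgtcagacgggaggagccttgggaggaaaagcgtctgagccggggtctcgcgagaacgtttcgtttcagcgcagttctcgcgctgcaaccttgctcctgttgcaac
Hspa5: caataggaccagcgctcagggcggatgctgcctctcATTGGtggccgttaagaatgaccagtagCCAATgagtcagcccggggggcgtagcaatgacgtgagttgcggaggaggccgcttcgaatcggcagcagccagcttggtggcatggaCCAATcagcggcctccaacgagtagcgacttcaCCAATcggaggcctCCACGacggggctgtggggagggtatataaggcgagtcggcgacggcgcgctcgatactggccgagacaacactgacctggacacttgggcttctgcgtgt

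The Hspa1b and Hspa1a promoters differed at 4 of 300 positions, and the longest run they shared was 201 bases, longer than the sequenced reads of 75 to 85 bases. Each holds GAANNTTC at -104 and CCAAT at -67, counted from the start base as 0 to the first base of the match. Hspb1 holds GAANNTTC at -117 and at -97. Hspa4 holds none of the motifs in this window. Hspa5 holds CCAAT at 4 places and CCACG once, and the CCAAT at -65 and the CCACG at -51 together form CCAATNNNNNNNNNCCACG, the ER stress element.

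A promoter was listed for 56 of the 70 members and for 17432 of all tested genes. GAANNTTC was found in 11 of the 56 (19.6%), among them Hspa1a, Hspa1b, Hspb1, Hspb8, Hsph1, Hspe1 and Dnaja1, against 7.21% of all promoters. TTCNNGAA, which can overlap it, was found in 4 of the 56 (7.14%), against 7.99% of all. The ER stress element, added after the sequences had been seen, was found in 3 of the 56 (Hspa5, Hsp90b1 and Dnajc3, all genes of the ER), against 0.166% of all promoters. TGTTTAC was found in 3 of the 56 (Dnajb12, Dnajc10 and Dnajc6; 5.36%), against 3.05% of all. CCAAT was present in 39.3% of member promoters and 38.6% of all, CCACG in 53.6% and 37.9%, and TATAAA in 5.36% and 12.9%. The member promoters were also richer in G and C, with a median of 62.2% against 56.3% of bases, and their observed to expected CpG ratio had a median of 0.828 against 0.579.

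In basal cells, chaperone genes were recovered slightly above input, led by Hspa1b and Hsp90ab1. A gene was called higher or lower when scaled ChIP over input reached 1.5-fold with a 99% counting interval that excluded 1; no spread between replicates exists, so no p-value is given, and the interval covers counting error only. Under this rule 6 of the 70 (8.57%) were called higher, where 4.24% of all tested genes were, and none was called lower, where 4.06% of all were. The median log2 ratio of the members was 0.16, against -0.01 over all tested genes, and 50 of the 70 (71.4%) lay above 0, against 48.4%. The interval alone lay above 1 in 15 members (21.4%), against 11.7% of all tested genes.

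Gene positions given here are those of the annotation, and the sources used here do not say in which region the reads were counted. Hspa1b (gene 15511, chr17:34956429-34959238) was assigned 273 reads in the basal ChIP library and 120 in its input, a 1.93-fold ratio (99% interval 1.45 to 2.59). In luminal cells ChIP gave 184 reads and input 232, a ratio of 1.08 (0.832 to 1.40). Scaled basal ChIP was thus the highest of its 4 libraries and scaled basal input the lowest. Basal over luminal input stood at 0.705 (0.522 to 0.944), so the basal input is low for this gene and enters the basal ratio as divisor. With both inputs summed as background the basal log2 ratio was 0.64, against 0.95 with its own input, and the call was kept.

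Its near copy Hspa1a (gene 193740, chr17:34969359-34972156) was assigned 11 reads in basal ChIP against 14 in input. Luminal ChIP and input held 15 and 19 reads. Its basal ratio of 0.667 had an interval of 0.209 to 2.03, too wide to be set against that of Hspa1b. The spermatid gene Hspa1l lies 547 bp from Hspa1a, and had 105 reads over the 4 libraries. The sources used here do not say how the authors' counting treated reads that match both copies, so the values of both genes are uncertain.

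The Hsp70 genes, Hspa1b and Hspa1a included, were mostly above input in both cell types. Of 13, 2 (Hspa1b and Hspa4) were called higher in basal cells, where 4.24% of all tested genes were, and none lower, where 4.06% were. Ratios above 0 on the log2 scale were seen for 10 of the 13 in basal cells (48.4% of all genes) and for 11 in luminal cells (49.6% of all), and the medians were 0.26 and 0.20 on the log2 scale. Hspa4 (chr11:53259814-53300479) reached 325 reads in basal ChIP against 172 in its input, 1.604-fold (1.26 to 2.06). It had 264 and 296 in luminal ChIP and input, 1.21-fold (0.972 to 1.51), and with the inputs summed its basal call was lost at log2 0.48.

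Hspa8, the constitutive cytosolic Hsp70 that also uncoats clathrin vesicles, had 293 reads in basal ChIP and 170 in basal input, 1.46-fold (1.14 to 1.89). It had 224 in luminal ChIP and 232 in luminal input, 1.31-fold (1.03 to 1.68). It thus lay above 1 beyond counting error in each cell type, below the 1.5-fold limit. Hspa9, the mitochondrial Hsp70, stood at log2 0.40 in basal and 0.09 in luminal cells, and Hspa5 at 0.26 and 0.32. Hspa12b and Hspa13 stood at -0.12 and 0.01 in basal cells, while Hspa14, which acts at ribosomes, had 94 reads in all and could not be placed. Hsph1, the inducible Hsp110, had 289 reads in basal ChIP over 184 in basal input, 1.33-fold (1.04 to 1.71), and stood at log2 0.19 in luminal cells.

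Of the 3 Hsp90 genes, Hsp90ab1 was called higher in basal cells, where 4.24% of all tested genes were. None was called different between the cell types, where 3.72% of all were higher in basal and 4.16% in luminal cells. Hsp90ab1, the constitutive cytosolic Hsp90 (chr17:45567778-45573261), reached 340 reads in basal ChIP against 173 in its input, a 1.67-fold ratio (1.31 to 2.14). Luminal ChIP had 240 and luminal input 275, 1.19-fold (0.942 to 1.496). Hsp90aa1, the inducible cytosolic form, had 223 reads in basal ChIP and 186 in basal input, 1.02-fold (0.785 to 1.32), but 251 in luminal ChIP and 245 in luminal input, 1.39-fold (1.10 to 1.76). The Hsp90aa1 difference between cell types, log2 -0.45 (SE 0.19), did not pass the rule. That of Hsp90ab1, log2 0.49 (SE 0.19), had an interval above 1 (1.007 to 1.95) but did not reach 1.5-fold. Hsp90b1, the ER form, had 10 reads in basal ChIP and 16 in basal input, and 7 and 19 in luminal ChIP and input, and its intervals reached from 0.162 to 1.58 and from 0.127 to 1.59.

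Among the 6 small heat shock genes, Hspb1 was called higher in basal cells and none lower, where 4.24% and 4.06% of all tested genes were. Hspb1 had 282 reads in basal ChIP and 148 in basal input, 1.62-fold (1.24 to 2.12). In luminal ChIP and input it had 206 and 221 reads, 1.27-fold (0.983 to 1.64). Hspb8, a partner of the co-chaperone Bag3, had 271 reads in basal ChIP over 195 in basal input and 137 in luminal ChIP over 188 in luminal input, with log2 ratios of 0.24 and -0.01. Hspb2, a muscle-enriched member that overlaps the crystallin gene Cryab in the annotation, had 138 over 83 in basal cells and 62 over 110 in luminal cells. All 6 small heat shock genes had a higher ratio in basal than in luminal cells, 1 of them, Hspb2, by enough to be called; of all tested genes 50.4% had the higher ratio in basal cells and 3.72% were called. The chaperonin genes Hspd1 and Hspe1 overlap, had 112 reads each, and stood at -0.13 and 0.03 in basal and -0.45 and 0.44 in luminal cells.

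**Figure D1:**
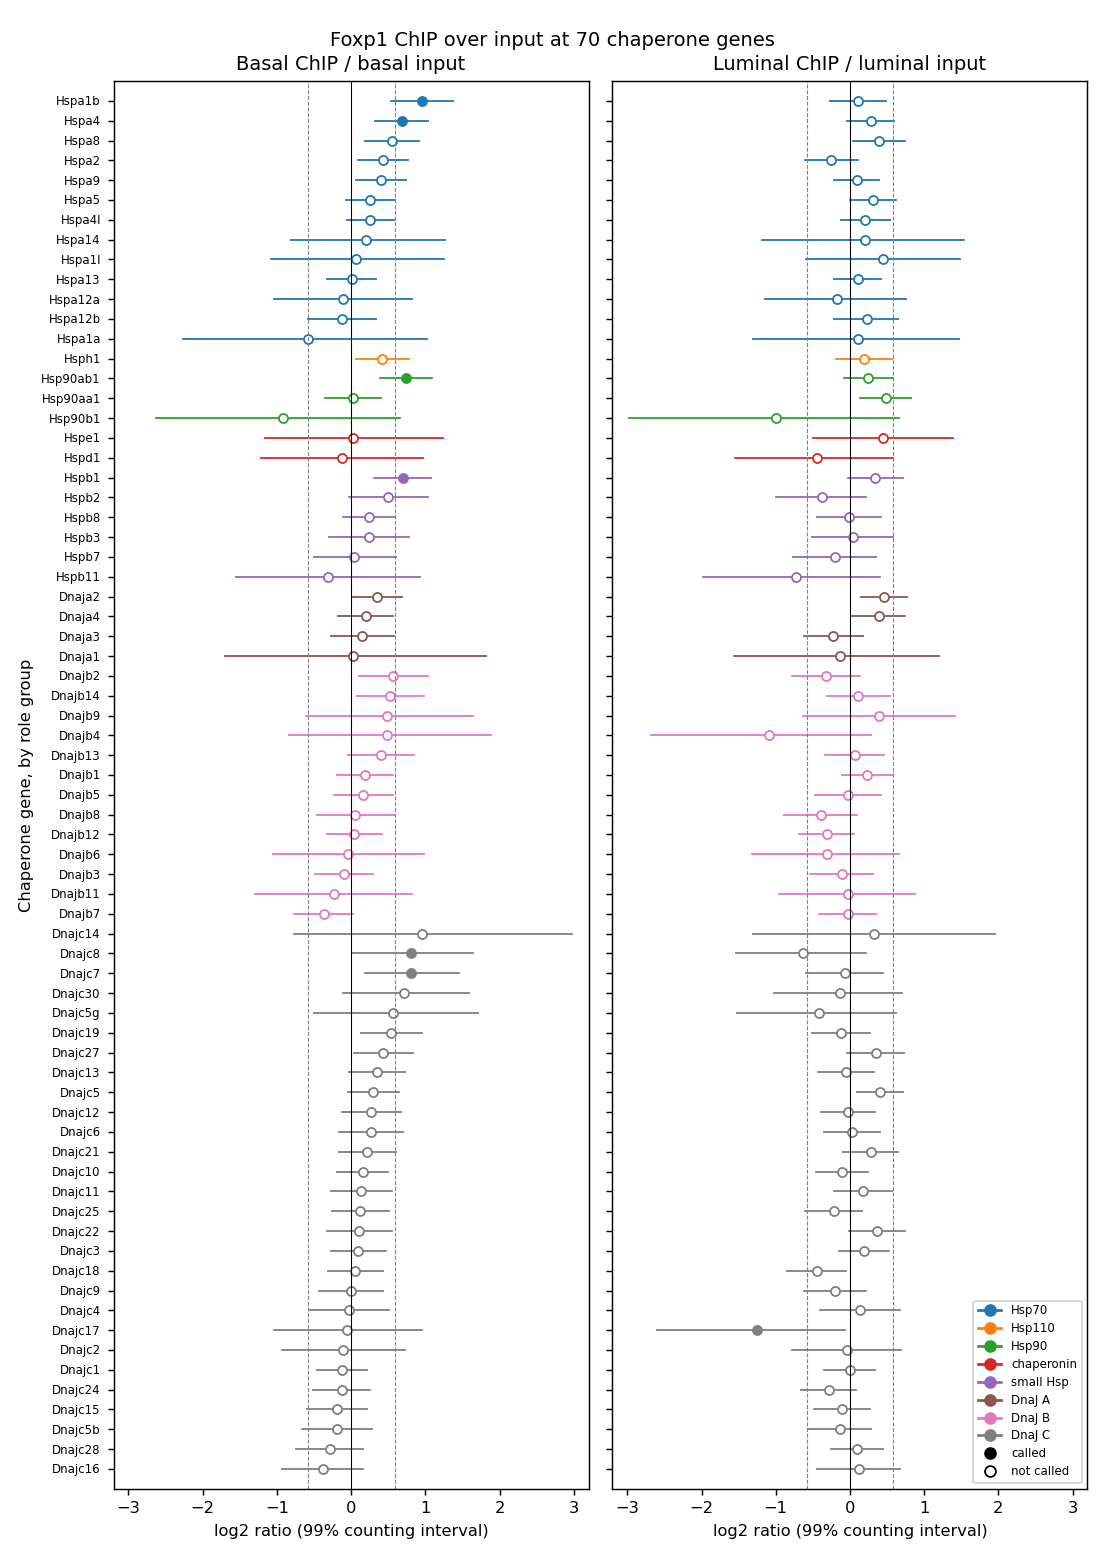
Log2 ratio of ChIP to input for the 70 chaperone genes in basal cells (left) and luminal cells (right), ordered by role group and basal ratio; lines are 99% counting intervals, filled points are called, and dashed lines mark 1.5-fold. The 6 filled basal points are Hspa1b, Hspa4, Hsp90ab1, Hspb1, Dnajc8 and Dnajc7, and the only filled luminal point is Dnajc17, on the lower side.

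The 45 DnaJ genes had a basal median of 0.15 and a luminal median of -0.04 on the log2 scale, with 2 called higher in basal cells (4.44%, against 4.24% of all tested genes), none lower (4.06% of all), and 1 called lower in luminal cells (2.22%, against 2.13% of all). The shares called higher in basal cells and lower in luminal cells were near those of all tested genes. Dnajc7, a tetratricopeptide protein that binds both Hsp70 and Hsp90, had 113 reads in basal ChIP and 55 in basal input, 1.74-fold (1.14 to 2.73). Luminal ChIP had 92 and luminal input 131, a ratio of 0.956 (0.664 to 1.37). Dnajc7 was also the 1 member called between the inputs, at 0.572-fold (0.369 to 0.868) in basal over luminal input, and with the inputs summed its basal log2 ratio was 0.28 and the call was lost, as it was with a widened interval. Dnajc8, a protein found with the spliceosome, had 70 reads over 34 in basal cells, 1.75-fold (1.012 to 3.12). It had 29 over 61 in luminal cells, 0.647-fold (0.345 to 1.17), and its basal call was lost with total-count scaling, with the inputs summed and with a widened interval.

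Dnajb2, a chaperone with ubiquitin-interacting motifs, had 181 reads in basal ChIP over 104 in basal input, 1.48-fold (1.07 to 2.05), just under the limit. Dnajc19, part of the import motor of the mitochondrial inner membrane, had 228 over 133, 1.46-fold (1.10 to 1.95). Dnajb14, Dnajc27 and Dnaja2 also had basal intervals above 1, at log2 0.52, 0.43 and 0.35. Dnajc14 and Dnajc30 exceeded 1.5-fold on 16 over 7 and 62 over 32 reads, with intervals that included 1. The lowest upper bounds in basal cells belonged to Dnajb7 (log2 -0.37), Dnajc16 (-0.38), Dnajc28 (-0.29), Dnajc1 (-0.13) and Dnajc15 (-0.19), and none was called. Dnajb1, the main heat-inducible DnaJ partner of Hsp70, stood at 0.18 with 237 over 177 reads. The ER members Dnajb9 and Dnajc3 stood at 0.49, on 33 over 20 reads, and at 0.10. Dnaja1 had 12 over 10 reads and Dnajb6, which suppresses protein aggregation, 32 over 28.

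In luminal cells the chaperone genes, taken as 1 set, lay close to the rest. None of the 70 was called higher, where 1.5% of all tested genes were, and 1 was called lower (1.43%), where 2.13% were. The members' median log2 ratio was -0.01, against -0.00 over all tested genes, and 34 of 70 (48.6%) lay above 0, against 49.6%. That median joins 45 members with at least 100 reads in each input, at 0.10 (0.01 over such genes), and 25 with fewer, at -0.14. The interval lay above 1 in 6 members (8.57%), against 6.74% of all tested genes.

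Those 6 were Dnaja2, Hsp90aa1, Dnajc5, Hspa8, Dnaja4 and Hspa5. Dnaja2, a cytosolic partner of Hsp70, had 299 reads in luminal ChIP and 296 in luminal input, 1.37-fold (1.11 to 1.70), close to its 1.28-fold in basal cells (336 over 223 reads; 1.02 to 1.61). Dnajc5, the cysteine string protein of secretory vesicles, had 296 over 304 in luminal cells, 1.32-fold (1.07 to 1.64). Dnaja4 stood at log2 0.39 and Hspa5 at 0.32. The gene called lower was Dnajc17, which encodes a nuclear J protein, with 13 reads in luminal ChIP and 42 in luminal input, 0.421-fold (0.165 to 0.953); it had 33 over 29 in basal cells, and the luminal call was lost with a widened interval. Dnajc18, on 137 over 254 reads, had a luminal interval below 1 (0.553 to 0.967) without reaching 1.5-fold. Dnajb12 (log2 -0.31), Dnajc24 (-0.29) and Dnajb8 (-0.38) followed by upper bound, and none of these 3 was called.

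**Figure D2:**
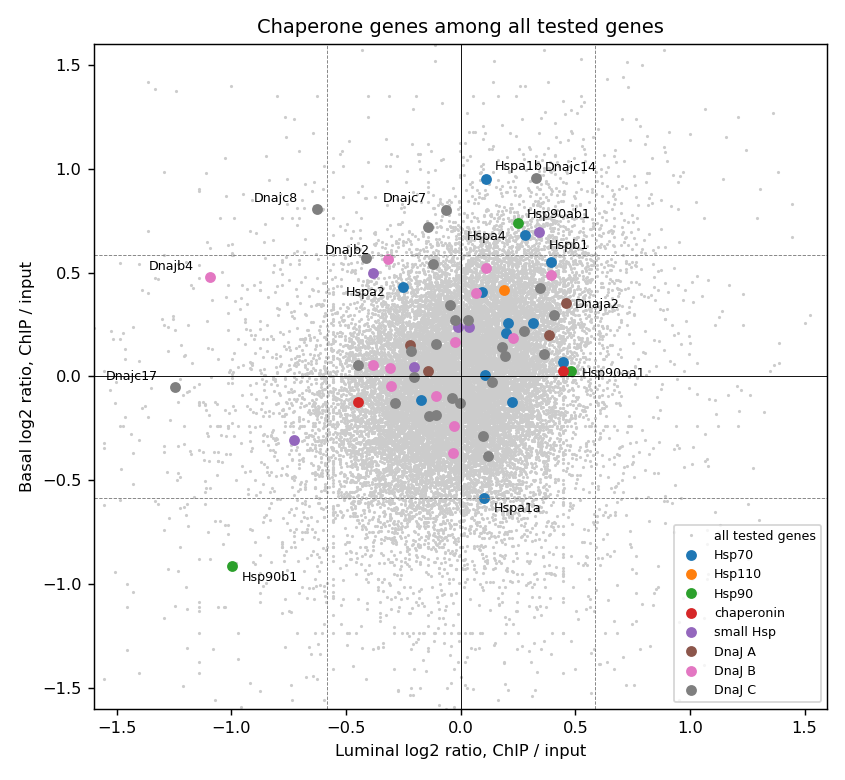
Basal against luminal log2 ratio of ChIP to input for the chaperone genes (coloured by role group) over all tested genes (grey; a few lie outside the axes), with dashed lines at 1.5-fold. The called basal genes lie above the upper dashed line with luminal log2 ratios between -0.63 and 0.34, and no chaperone gene lies past the right dashed line.

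The ratio of basal to luminal enrichment was examined next, gene by gene. It was called higher in basal cells for 7 of the 70 (10%), where 3.72% of all tested genes were, and higher in luminal cells for none, where 4.16% were. The median log2 difference was 0.19, against 0.00 over all tested genes, and 45 of 70 members (64.3%) lay above 0, against 50.4%. The 7 were Dnajc8 (log2 1.41, SE 0.44), Dnajb2 (0.87, SE 0.25), Hspb2 (0.87, SE 0.30), Dnajc7 (0.86, SE 0.31), Hspa1b (0.84, SE 0.21), Hspa2 (0.68, SE 0.19) and Dnajc19 (0.66, SE 0.22), where SE is the counting error. Hspa2, an Hsp70 needed for male meiosis, had 330 reads in basal ChIP over 208 in basal input and 181 in luminal ChIP over 293 in luminal input. Its inputs differed little (0.967-fold, 0.761 to 1.23), so the contrast lay in the ChIP libraries.

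The inputs entered the other contrasts to different degrees. Over the members, basal over luminal input had a median log2 ratio of -0.09, against -0.00 over all tested genes, and 25 of 70 lay above 0, with none called higher, where 0.709% of all were, and 1 lower, where 0.463% were. When both inputs were summed, so that only the ChIP libraries differed, 4 members were called higher in basal cells, where 4% of all tested genes were. These were Dnajc8 (1.02), Hspb2 (0.91), Hspa2 (0.63) and, newly, Hspb8. Dnajc28 was called higher in luminal cells, where 4.03% of all were. Basal over luminal input was 1.41 (1.08 to 1.85) for Hspb8 and 0.743 (0.564 to 0.971) for Dnajc28. Each lay in the direction of the new call, and summing the inputs leaves such a difference in the ChIP contrast. Against their own inputs the 2 genes differed by log2 0.25 and -0.38, and neither was called. Hspa1b (0.33), Dnajb2 (0.51), Dnajc19 (0.28) and Dnajc7 (0.06) were then no longer called. With the interval widened by the overdispersion of olfactory receptor genes, used as a reference, 1 member, Hspa1b, was still called higher in basal cells, where 0.895% of all tested genes were. The members' basal log2 ratios were weakly related to their luminal ones (r = 0.23, rho = 0.22, n = 70), with 0.21 and 0.25 over all tested genes; these are across genes, which are not independent.

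**Figure D3:**
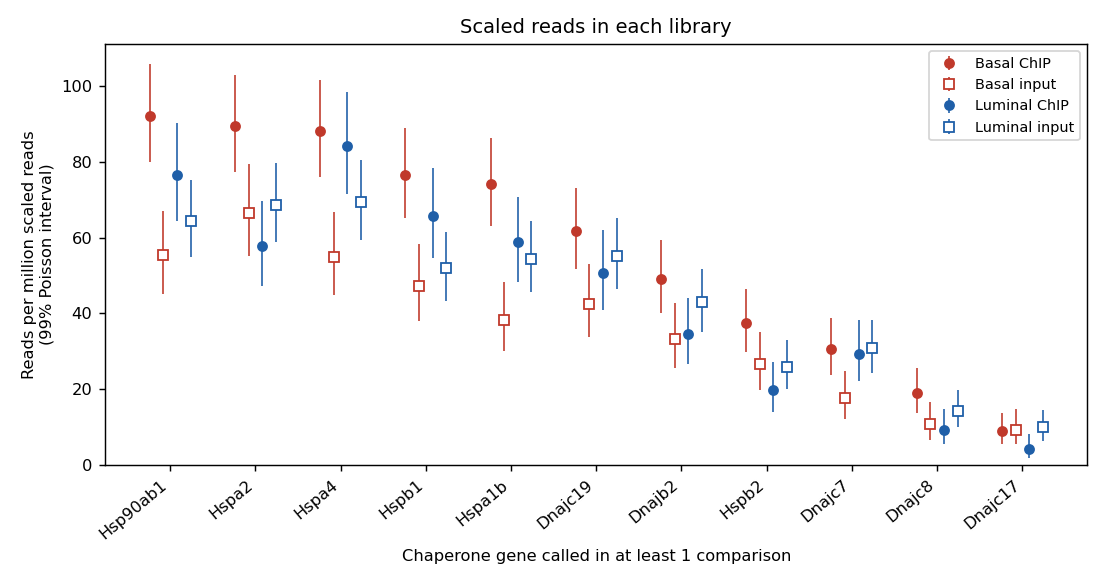
Scaled reads (library size scaled by TMM) in each of the 4 libraries for the 11 chaperone genes called in any comparison, with 99% Poisson intervals; filled circles are ChIP and open squares input, red basal and blue luminal. Basal ChIP is the highest of the 4 libraries for every gene shown except Dnajc7 and Dnajc17, where luminal input is. Luminal ChIP lies below luminal input for Hspa2, Dnajb2, Hspb2, Dnajc8, Dnajc17, Dnajc19 and, by little, Dnajc7.

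Among the members, read number and position went together. In order of total reads, the widest gap between members fell between 203 and 383, with 19 below it and 51 above. All 19 of the low group lay within 1000 bp of another gene of the count table (at most 547 bp away), against 16 of the 51 in the high group. The relation was weaker over all tested genes with a position. There 9201 lay within 1000 bp, with a median total of 554 reads, and 13902 farther away, with 670. Among the members these medians were 194 and 809. The low group included Hspa1a, Hspd1, Hspe1, Hsp90b1, Dnaja1, Dnajb9 and Dnajb11. Its basal intervals had a median width of 2.21 on the log2 scale, against 0.776 in the high group, and Dnajc8, at 1.75-fold, was its only basal call. The sources used here do not say how reads in more than 1 gene region were counted, and the part of this in the low counts was not tested. The basal median was 0.03 in the low group and 0.20 in the high group, and 5 of the 6 basal calls fell in the high group. Among the 45 members with at least 100 reads in each input, 4 were called higher in basal cells (8.89%), where 4.62% of such genes were, none lower, where 3.45% were, and their median was 0.20, against 0.00. In luminal cells none of the 45 was called higher or lower, where 1.42% and 1.7% of such genes were. The luminal median of the 45 was 0.10, against 0.01 over such genes, and that of the members with fewer reads was -0.14. The difference was called higher in basal cells for 4 of the 45, where 3.96% were, and lower for none, where 4.09% were, and between inputs none was called, where 0.642% were higher and 0.247% lower. The members nearest to the 40-read limit were Hspb9 (38 reads) and Hspb6 (3 reads) outside it, and Dnajc14 (48), Hsp90b1 (52), Dnaja1 (57) and Hspa1a (59) inside it.

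**Figure D4:**
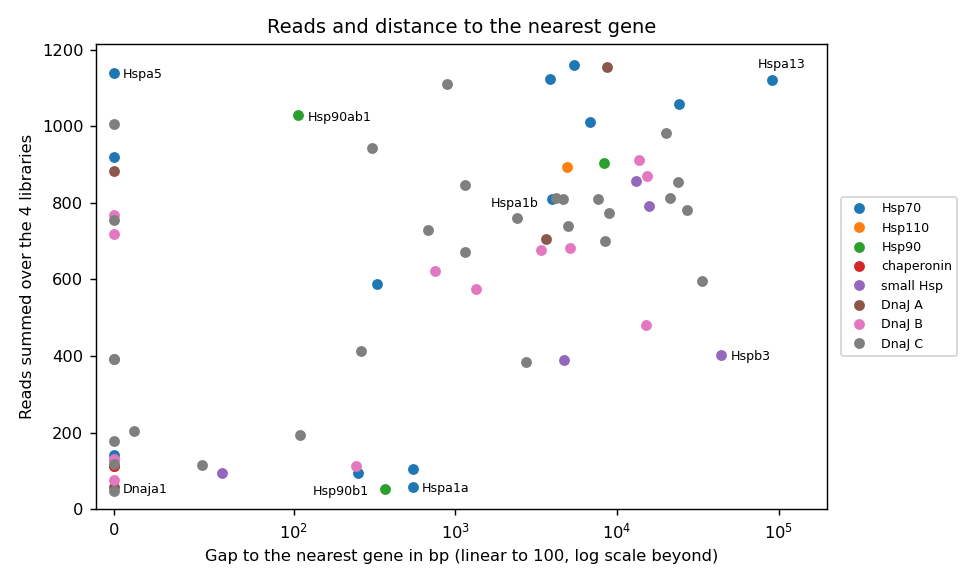
Reads summed over the 4 libraries for each of the 70 chaperone genes against the distance to the nearest other gene of the count table (0 where the annotated genes overlap; linear to 100 bp, log scale beyond). All 19 genes with 203 or fewer reads lie at 547 bp or less, while genes at larger gaps have 383 reads or more.

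Promoter base composition was compared with the ratios as a description. Across the 56 with a listed promoter, Spearman's rho between G and C content and the log2 ratio was 0.03 in basal and 0.15 in luminal cells. Over all 17432 genes it was 0.30 and 0.18. With basal over luminal input, rho was 0.003 across the 56 and -0.26 over all. For the CpG ratio, rho in basal cells, luminal cells and between inputs was 0.13, 0.03 and -0.18 across the 56. Over all genes it was 0.32, 0.22 and -0.25. All of these values share the same 4 libraries. The 12 members with GAANNTTC or TTCNNGAA had a basal median of 0.24 and 2 basal calls, Hspa1b and Hspb1, and the 44 without a match had a median of 0.14 and 3 calls. Over all tested genes the order was the opposite, with medians of -0.08 with a match and 0.00 without, and 2.78% and 4.47% called higher in basal cells.

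Other genes of the chaperone system were taken from a list of 57, of which 55 were tested. In basal cells 4 were called higher (7.27%, against 4.24% of all tested genes) and 1 lower (1.82%, against 4.06%), with a median of 0.07. In luminal cells 2 were called higher (3.64%, against 1.5% of all) and 1 lower (1.82%, against 2.13%), with a median of 0.03. The 4 were the antioxidant regulator Nfe2l2 (427 reads in basal ChIP over 197 in basal input, 1.84-fold, 1.47 to 2.31), the unfolded protein response factors Atf6 (1.59-fold, 1.27 to 2.01) and Xbp1 (1.57-fold, 1.23 to 2.03), and the co-chaperone Bag6 (1.54-fold, 1.09 to 2.19). Nfe2l2 (1.51-fold, 1.22 to 1.86) and the stress response factor Atf4 (303 over 261 reads, 1.58-fold, 1.27 to 1.97) were called higher in luminal cells. All 7 listed stress response regulators lay above 0 in each cell type, against 48.4% of all tested genes in basal and 49.6% in luminal cells, and 3 were called higher in basal cells and 2 in luminal cells, where 4.24% and 1.5% of all were.

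None of the 5 heat shock factors was called higher in either cell type, where 4.24% of all tested genes were in basal and 1.5% in luminal cells. Of the 5, Hsf3 was called lower in luminal cells, where 2.13% of all were, with 25 reads in ChIP over 77 in input (0.442-fold, 0.230 to 0.7996). It had 72 over 45 in basal cells and differed between cell types by log2 1.59, a call made for 3.72% of all. Hsf1 stood at -0.18 in basal cells. Among 29 tested co-chaperones the Hsp90 activator Ahsa1 was lowest in basal cells, on 4 reads over 19, and Trap1, the mitochondrial Hsp90, differed by log2 -0.62, with 194 over 173 reads in basal and 218 over 203 in luminal cells. Of 14 genes of the cytosolic chaperonin TRiC and its partner prefoldin, none was called in either cell type, and the medians were -0.05 and -0.10. The prefoldin subunit Pfdn5 was called lower in basal than in luminal cells by the ratio of ratios (log2 -0.65), as were Trap1 and Ahsa1. These 3 were 5.45% of the 55 tested genes outside the members, where 4.16% of all tested genes were called.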

How the data were processed

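DNA from Foxp1 ChIP and input of basal and luminal mammary epithelial cells was sequenced as single reads of 75 to 85 bp, 1 library per group. The deposited values are raw read counts per gene; per the submitters' processing notes the authors used featureCounts and build mm10. The sources used here give no aligner, duplicate handling or counted region. The counts in the single files were equal to the series table for 24548 of 24548 genes.

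Counts were scaled by TMM (edgeR 4.0.16, R 4.3.3) on genes with at least 40 reads over the 4 libraries; 1420 genes were not tested. No count model was fitted, since 1 library per group leaves no residual degrees of freedom. Ratios have exact Clopper-Pearson 99% intervals, with 0.5 added to both counts where 1 is 0. The ratio of ratios used counts plus 0.5 and a normal interval. Reads are not independent molecules, so intervals cover counting error only. The calculations were tested on simulated data (Python 3.11.15, numpy 2.4.6, pandas 2.3.3, scipy 1.17.1; figures with matplotlib 3.10.9). Alternatives were total counts, DESeq2 1.42.0 size factors, centring on olfactory receptors, no filter, summed inputs, intervals widened by the receptor overdispersion (2.28 in basal, 2.12 in luminal cells, 1.31 between inputs) and a 2-fold limit; a limit of 100 reads in each input was added after seeing the data.

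Positions (70 of 70 members) and promoters (56 of 70) are from RefSeq tables on GRCm38.p6. Members and lists were chosen with earlier results of these data known. Genes named are every member called in any comparison, the 5 with the highest lower and lowest upper bounds per cell type, those nearest the 40-read limit, and a fixed set of 20 well-known chaperones; a few others are examples chosen after their values were seen. Of the 8 promoters the rule selected, 5 are printed.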

Additional observations from a re-analysis of the deposited data

Results flagged for a closer look

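Enrichment was called different between basal and luminal cells at 7 of the 70 chaperone genes by the ratio of ratios. This compares 4 single libraries with a 99% counting interval. Of all tested genes 3.72% were called higher in basal and 4.16% in luminal cells. The log2 differences were 1.41 for Dnajc8, 0.874 for Dnajb2, 0.871 for Hspb2, 0.859 for Dnajc7, 0.835 for Hspa1b, 0.677 for Hspa2 and 0.657 for Dnajc19, each higher in basal cells. Basal over luminal input was 0.572-fold for Dnajc7, which was called, and 0.705-fold for Hspa1b, which was not, its interval lying below 1. With the inputs summed the differences were 1.02 for Dnajc8, 0.91 for Hspb2 and 0.63 for Hspa2, which were still called, where 4% of all tested genes were. They were 0.51 for Dnajb2, 0.33 for Hspa1b, 0.28 for Dnajc19 and 0.06 for Dnajc7, which were not. With the widened interval Hspa1b was the only 1 of the 7 still called, where 0.895% of all tested genes were.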

How the results depend on the processing

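Direction and calls were compared under 7 planned settings and 1 added. With DESeq2 size factors or no filter, each count of called members was the same as reported. Centring on olfactory receptors moved the median of all genes to 0.20 in basal and 0.07 in luminal cells, 0.15 for the difference and -0.21 between inputs. The members' medians then were 0.38, 0.060, 0.33 and -0.30, with 17 called higher in basal cells (12.9% of all genes) and 5 lower between inputs (3.89% of all genes). With total counts the basal median was 0.11, against -0.07 over all genes. Then 5 were called higher (3.01% of all genes), Dnajc8 being lost. With the inputs summed the medians were 0.10 in basal cells, 0.045 in luminal cells and 0.085 for the difference. Over all genes they were -0.01, -0.01 and 0.00. In basal cells 3 members (Hsp90ab1, Hspa1b and Hspb1) were called higher, where 3.13% of all genes were. For the difference 4 were called higher and 1 lower, where 4% and 4.03% of all genes were. With the widened interval 4 basal calls were kept (3.59% of all genes), 0 luminal lower calls (0.549% of all) and 1 difference (0.895% of all). At 2-fold, 0 were called higher in basal cells (0.553% of all genes) and 1 for the difference, Dnajc8 (0.575% of all). The luminal lower call of Dnajc17 was kept, where 0.571% of all genes were called. Between inputs 0 were called, where 0.0692% of all genes were higher and 0.0908% lower. With at least 100 reads in each input, 4 members differed between cell types and 0 were called lower in luminal cells or between inputs. The luminal median was 0.10, against 0.01 over such genes. A change of scaling or centring shifts all genes by the same log2 amount. These runs therefore could not alter the gap of 0.18 between the members' basal median and that of all genes. That gap was 0.19 without the filter, 0.11 with the inputs summed and 0.20 with at least 100 reads in each input. No paired analysis was possible because each group has 1 library. Limits: depth restricts the 19 members with 203 or fewer reads most, and no value was checked against the spread between animals.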
